A study of Homo sapiens with 6 samples.

Results

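Semaphorins, ephrins and Slits are ligands that steer growing axons, migrating cells and vessels, and plexins, neuropilins, Eph kinases and Robos are the receptors that read them. The genes of these families were taken from the array by symbol (semaphorin classes 3 to 7, all plexins, both neuropilins, ephrins and Eph receptors of the A and B types, Slits and Robos), and each gene was represented by its brightest probe set, by mean log2 signal over the 6 arrays. The rule found 52 genes among the 11963 that the array names by a single symbol, measured by 87 probe sets. There were 18 semaphorins, 8 plexins, 2 neuropilins, 8 ephrins, 10 Eph receptors, 3 Slits and 3 Robos.

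RNA came from NCI-H295A cells, an adherent human adrenocortical carcinoma line that makes steroids. All plates held the same medium with insulin, selenium, gentamicin and fetal calf serum. Control plates received no analogue (3 arrays, numbered 1 to 3). Treated plates were kept for 18 h with 1 mM 8-Br-cAMP, a cAMP analogue that enters cells and mimics what ACTH from the pituitary sets off in adrenal cells (3 arrays, numbered 1 to 3). The study concerns the phosphorylation of P450c17, the enzyme behind adrenal androgen synthesis, and these guidance genes were measured along with all others on the array. Results hold for this 1 tumour line. The series' description mentions both 3 plates and 3 separate experiments, and does not tie the sample numbers to either. The p-values therefore reflect the spread among these samples alone, part of which may be technical. Precision is limited by having 3 arrays a group.

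In the classical scheme, class 3 semaphorins are secreted and bind a neuropilin that pairs with an A-type plexin, while most membrane-bound semaphorins bind a plexin directly. Plexins and Robos then act on the cytoskeleton and on adhesion. Eph receptors are tyrosine kinases whose ephrin ligands are themselves anchored in the membrane of a neighbouring cell, so that signals can run both ways.

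Values are unlogged signal intensities, and differences are log2 of 8-Br-cAMP minus log2 of control. A signal of 45.5, the level above which 60% of probe sets lie by mean log2 signal, served as the filter level. Of the 52 genes, 25 had a mean above it and were tested, and 27 did not. The arrays numbered 1 stood apart in both groups. The ratio of actin signal at the 3' end to that at the 5' end, which grows as RNA degrades, was 1.93 to 2.41 on 4 arrays but 5.72 in control 1 and 38.8 in 8-Br-cAMP 1. Of the 25 tested genes, 20 were higher in control 1 than the mean of controls 2 and 3, and 18 were higher in 8-Br-cAMP 1 than the mean of the other treated arrays, where 49.7% and 56.4% of all 7927 tested genes were. Adrenocortical markers were present (10 of 10 measured genes above the filter level, summed signal 8395.6 to 28615.7 in controls and 28309.7 to 60447.5 after 8-Br-cAMP). Of 9 measured chromaffin and neuron markers 1 was above the level, with TH and DBH, the catecholamine enzymes, at 1.4 to 47 and 4.1 to 9.4. Leukocyte markers were above it in 1 of 6 (summed signal 112.9 to 185.8 in controls and 82.2 to 207.1 after 8-Br-cAMP), and fibroblast markers in 4 of 8 (668.5 to 1347.3 and 495.9 to 660), of which COL3A1 fell.

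Among the guidance families, SEMA5A and PLXNA1 passed as lower, and no gene as higher, with arrays of equal number taken as pairs. The pairing was inferred from these same arrays and is not part of the main fit. Without regard to the sample numbers, limma called 0 of the 25 genes at an adjusted p under 0.05 (0% of all 7927 genes), with 8 of the 25 at an unadjusted p under 0.05 where 11.9% of all genes were. In the paired fit, which takes the sample number as a block, 2 of the 25 fell (1.96% of all genes fell and 1.73% rose, 3.68% in either direction) and 0 rose. With 25 genes tested, that share sets nothing about the families apart from other genes. Over all probe sets the paired fit called 3.21%. With both number 1 arrays left out and no block, 2 of the 25 rose and 4 fell, where 12.8% of all genes rose and 20.5% fell, but that fit rests on 2 arrays a group. In the paired fit 9 of the 25 passed with pair 1 left out (37.6% of all genes), 1 with pair 2 left out (2.9% of all genes) and 2 with pair 3 left out (2.51% of all genes). Each of these fits rests on 2 pairs, so its p-values lean on variances shared across genes more than on a gene's own spread. Unless another fit is named, each adjusted p below is that of the paired fit. In bulk RNA, fewer cells with a transcript and less of it per cell cannot be told apart.

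The lower side held more of the 25 genes than the upper, as it did for genes at large. The log2 difference was below 0 for 17 of 25 (61.3% of all genes), with a median of -0.43 against -0.14 over all genes. The median moved with the scaling, to -0.17 after quantile normalization and -0.21 with a common median (15 of 25 below 0 in each), and to -0.80 on the spike-in scale (20 of 25). All 3 pairs were higher for 5 genes and lower for 11, against 15.2% and 29.5% of all genes. Signals did not overlap between the groups for 9 of the 25 genes (19.9% of all genes), of which 3 were higher and 6 lower (6.32% and 13.6%). At an unadjusted p under 0.05 in the paired fit there were 11 (22.4% of all genes). The selection the study states, a 2-fold mean change together with an unadjusted p below 0.05, held without the block for 5 genes (7.01% of all genes), namely SEMA5A, SEMA4D, PLXNA1, PLXNC1 and ROBO1, all lower. With the block it held for 6 (9.3% of all genes). Of the 25 genes, 20 had both group means above the filter level. SEMA4D, EFNA3, EPHA2 and ROBO4 passed the filter through their controls alone and SLIT3 through its treated arrays alone, so their place in these counts follows in part from the filter and supports nothing.

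**Figure D1:**
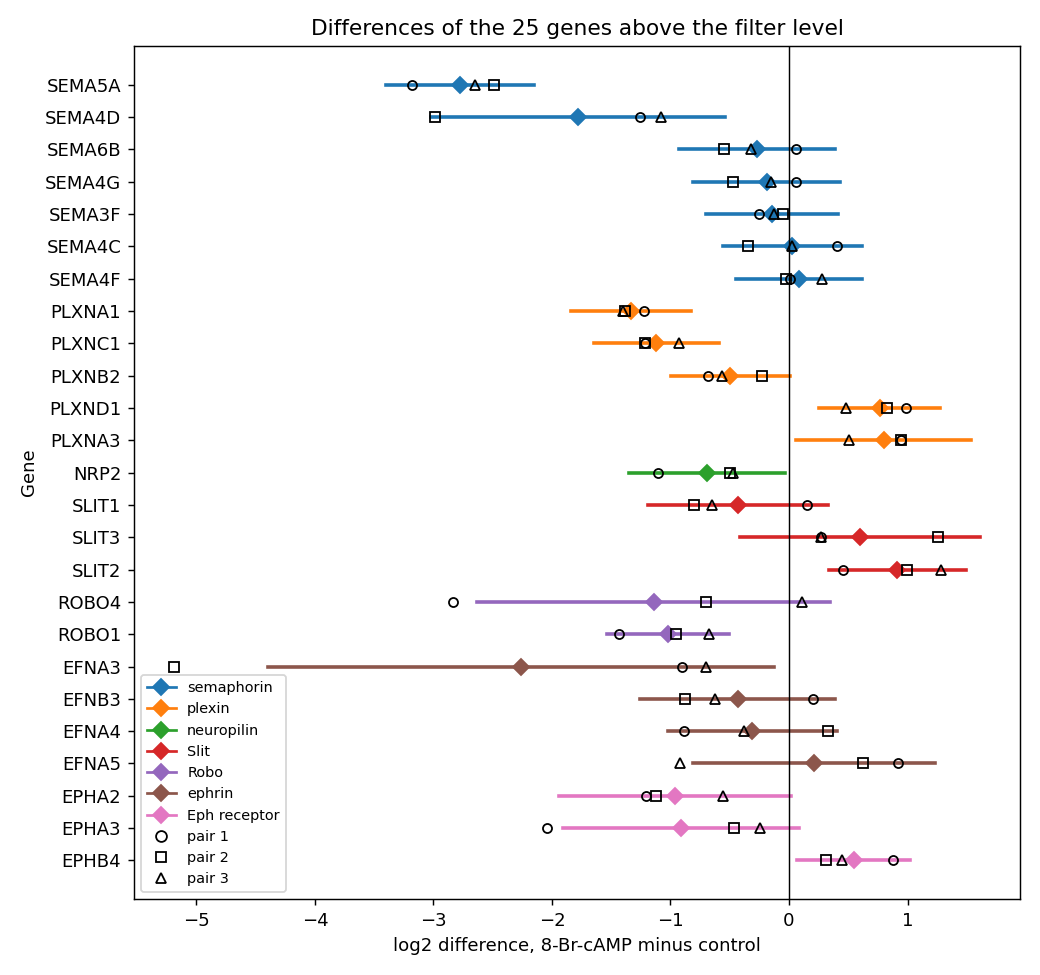
Log2 differences of the 25 tested guidance genes (x axis, 8-Br-cAMP minus control), grouped by family on the y axis. Diamonds are means over 3 pairs, bars the 95% interval of the paired fit, and open symbols the 3 same-numbered pairs. SEMA5A lies farthest to the left with all pairs between -3.18 and -2.49.

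SEMA5A had the lowest difference of the 25 genes. It encodes a membrane semaphorin with thrombospondin repeats, which binds the plexin B3 receptor and can attract or repel growing axons. Its probe set 213169_at gave signals of 433.4, 343.1 and 309.6 on controls 1, 2 and 3, and of 47.7, 61.1 and 49.3 on 8-Br-cAMP 1, 2 and 3. All 3 treated arrays lay far below all 3 controls and close to the filter level. The mean log2 signal went from 8.49 ± 0.25 (SD, n = 3) to 5.71 ± 0.19, a 6.84-fold lower level (log2 difference -2.77, SE 0.26, 95% interval -3.40 to -2.15, adjusted p = 0.0106). Without the block its adjusted p was 0.0511. It was 0.0357 without control 1 and 0.0204 without 8-Br-cAMP 1, and 0.289 to 0.378 without any 1 of the other 4 arrays. A second probe set of the gene, 205405_at, read 197.3, 232.5 and 196.3 in controls and 42.1, 29.8 and 21.7 after 8-Br-cAMP. It fell by 2.79 on the log2 scale (adjusted p = 0.0147), nearly the same difference as in the used probe set. All 3 of its treated signals were under the filter level. This second probe set passed the filter through its controls alone, so its fall follows in part from the filter and adds little support. With 1 pair left out the used probe set differed by -2.92 to -2.57 and passed each time (adjusted p 6.85e-07 to 0.000122). With 2 pairs left, these p-values rest mostly on variances shared across genes and little on the spread of SEMA5A itself.

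The gene lies on the minus strand of chromosome 5 (GRCh38.p14, chr5:9035033-9546075). The 250 bases before its RefSeq start, chr5:9546076-9546325, are printed 5′ to 3′ because this is the gene with the largest change. They hold no match to the cAMP response element (CRE, TGACGTCA), its half-site (TGACG) or the core of the SF-1 binding site (AAGGTCA), each searched on both strands, and so carry no capitals.
SEMA5A: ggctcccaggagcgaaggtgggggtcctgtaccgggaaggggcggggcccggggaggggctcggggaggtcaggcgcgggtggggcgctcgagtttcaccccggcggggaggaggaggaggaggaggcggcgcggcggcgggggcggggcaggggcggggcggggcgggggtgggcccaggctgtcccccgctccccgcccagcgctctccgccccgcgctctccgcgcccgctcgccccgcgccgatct
Its G and C content is 82%. Of the 52 genes 47 have at least 1 such window in the RefSeq table, with 71 windows in all.

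Among the other semaphorins none passed. SEMA4D, a membrane semaphorin first known from lymphocytes that binds plexin B1, read 101.8, 77.8 and 85.6 in controls and 42.5, 9.8 and 40.4 after 8-Br-cAMP. The groups did not overlap, but all 3 treated signals were under the filter level and spread widely. The difference was -1.78 (95% interval -3.02 to -0.54, adjusted p = 0.121). Its receptor PLXNB1 stayed out of the test, with signals of 13.2 to 81.5. SEMA3F, the secreted ligand of neuropilin 2, read 194.4, 150.6 and 119.4 in controls and 162.8, 145.2 and 109.6 after 8-Br-cAMP, a difference of -0.14 (-0.70 to 0.41). The intervals of SEMA4C (-0.56 to 0.61), SEMA4F (-0.44 to 0.62), SEMA4G (-0.81 to 0.43) and SEMA6B (-0.93 to 0.38) also spanned 0. For these 5 genes the interval of the used probe set leaves out a 2-fold change in either direction. That of a second SEMA4C probe set above the level, 219039_at, does not (-1.04 to 0.60). The other 11 semaphorins, all of SEMA3A, SEMA3B, SEMA3C, SEMA3D, SEMA3E and SEMA3G among them, had means below the filter level, with no array above 81.3.

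PLXNA1, the A-type plexin that joins neuropilins in receptors of class 3 semaphorins, was the other gene that passed as lower in the paired fit. Its probe set 221538_s_at read 533.3, 273.8 and 264 on controls 1, 2 and 3 and 228.5, 105 and 100.1 on 8-Br-cAMP 1, 2 and 3. The number 1 array was the highest of each group, and the groups did not overlap. The mean log2 signal went from 8.40 ± 0.57 to 7.07 ± 0.67 (SD, n = 3), a 2.52-fold lower level. Within pairs the differences were alike, at -1.22, -1.38 and -1.40 (mean -1.33, SE 0.21, adjusted p = 0.0307, and 0.317 without the block). The call was lost with pair 2 left out (-1.31, adjusted p = 0.0778) and with pair 3 left out (-1.30, adjusted p = 0.130). It was also lost with a common median (-1.11, adjusted p = 0.0734), without an intensity trend and in the unmoderated test. The second probe set of the gene, 221537_at, read 236.5, 249.3 and 195.3 in controls and 306.6, 156.9 and 110.2 after 8-Br-cAMP. It was higher in pair 1 (0.37) and lower in pairs 2 and 3 (-0.67 and -0.83), and did not pass (-0.37, adjusted p = 0.515). Without the number 1 arrays, its difference was -0.75 (adjusted p = 0.0424). The part of the RNA integrity difference in this disagreement was not tested.

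PLXNA1 lies on chromosome 3 (GRCh38.p14, chr3:126983115-127037389). The 250 bases before its start are chr3:126982865-126983114 on the plus strand. They are shown because this is the second gene that passed the paired fit, and they too hold none of the 3 motifs.
PLXNA1: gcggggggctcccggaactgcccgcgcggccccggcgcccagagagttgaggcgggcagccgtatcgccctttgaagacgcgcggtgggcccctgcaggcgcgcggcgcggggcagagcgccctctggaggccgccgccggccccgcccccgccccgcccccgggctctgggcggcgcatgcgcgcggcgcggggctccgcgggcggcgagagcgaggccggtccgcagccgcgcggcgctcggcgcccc
Its G and C content is 84.4%.

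The remaining tested plexins lay on both sides of 0. PLXNC1, the receptor of SEMA7A, read 258.3, 322.9 and 296.3 in controls and 111.5, 139.1 and 155.7 after 8-Br-cAMP. These groups stood well apart, at less than a 2-fold spread within each. The difference was -1.12 (-1.64 to -0.59), 2.17-fold lower, with an adjusted p of 0.0506 that just missed the threshold. Over 10 alternatives with the block it ran from 0.0345 to 0.251 and passed in 4. Another PLXNC1 probe set differed by -0.16, with both signs among its pairs (0.48, 0.16 and -1.12). SEMA7A itself had no signal above 51.5.

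PLXND1, the receptor of SEMA3E and a regulator of vessel patterning, read 285.4, 242 and 288.4 in controls and 565.7, 428.1 and 403.7 after 8-Br-cAMP. All treated arrays were above all controls, a 1.70-fold difference (log2 0.77, 0.26 to 1.28, adjusted p = 0.110). Its second probe set went the same way by more, from 48.2, 21.5 and 34.4 to 154.8, 74.3 and 83.7 (log2 difference 1.59, adjusted p = 0.0719). The control mean of that probe set was under the filter level. It passed the filter through its treated arrays alone, so its rise follows in part from the filter and adds little support. SEMA3E read 0.9 to 26.1. PLXNA3, the partner plexin of neuropilin 2, read 47.9, 60.4 and 72.9 in controls and 92.1, 116.4 and 103.6 after 8-Br-cAMP, again without overlap (log2 difference 0.80, 0.06 to 1.53, adjusted p = 0.206). PLXNB2, a receptor of SEMA4C, read 553.3, 372.3 and 395.1 against 343.8, 317.7 and 266.6 (-0.49, -0.998 to 0.01, adjusted p = 0.242), lower without overlap. PLXNB3, the receptor of SEMA5A, read 5.3 to 17.5, and the used probe set of PLXNA2 17.1 to 45.4, all below the filter level. A second PLXNA2 probe set, with a mean below the level, read 33.2, 65.9 and 39.7 in controls. After 8-Br-cAMP it read 13.9, 19.3 and 9.5, and it entered no test in the main fits. With both number 1 arrays left out, PLXNA1 (-1.39) and PLXNC1 (-1.07) fell and PLXND1 (0.65) rose, at adjusted p of 0.000871, 0.00222 and 0.0125, while PLXNA3 (0.73) and PLXNB2 (-0.40) did not pass.

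Neuropilins, the co-receptors that also bind vascular endothelial growth factors, gave no call, and NRP1 was below the filter level. NRP2 read 263.1, 120 and 93.7 in controls and 122.5, 85.2 and 67.5 after 8-Br-cAMP (-0.69, -1.35 to -0.03, adjusted p = 0.217), with overlap. Its 3 other probe sets above the level differed by -0.72, -0.10 and 0.78, so the gene has no direction that its probe sets share. NRP1 read 6.9, 4.7 and 3.1 in controls and 9.5, 27.5 and 21.3 after 8-Br-cAMP. All 3 of its probe sets were higher in each of the 3 pairs, yet every signal was under the filter level. With no filter its difference of 1.93 had an adjusted p of 0.310.

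**Figure D2:**
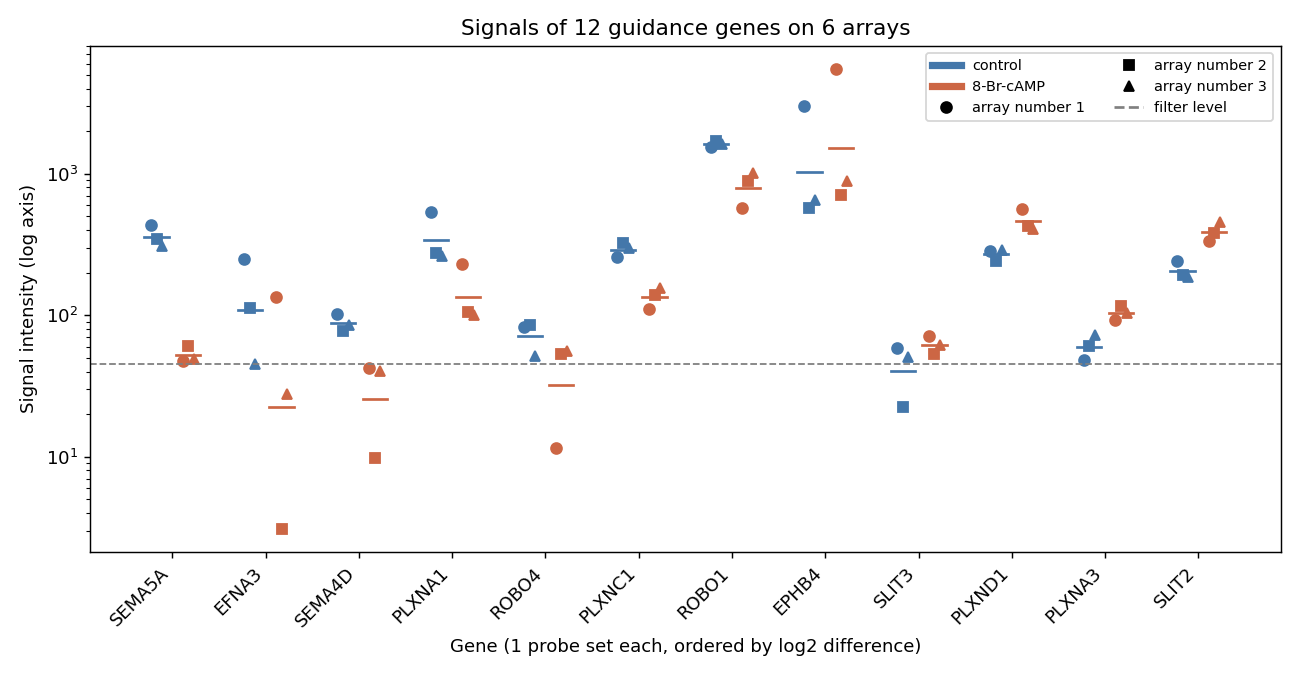
Signal intensity (y axis, log scale) of 12 guidance genes on each of the 6 arrays, ordered by log2 difference. Blue is control and orange 8-Br-cAMP, the symbol gives the array number, short lines are means of log2 signal, and the dashed line is the filter level. SEMA5A, PLXNA1, PLXNC1 and ROBO1 have all treated arrays below all controls, while SLIT2, PLXND1 and PLXNA3 have them above.

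The repellent ligand SLIT2 and its main receptor ROBO1 lay on opposite sides of 0. ROBO1 read 1537.6, 1715.1 and 1610.2 in controls, a narrow range, and 568.5, 886.8 and 1008.1 after 8-Br-cAMP. The treated arrays were all lower, with 8-Br-cAMP 1 the lowest. The mean log2 signal was 10.66 ± 0.08 in controls and 9.64 ± 0.43 after 8-Br-cAMP (SD, n = 3), 2.03-fold lower (-1.02, -1.54 to -0.51, adjusted p = 0.0585). SLIT2 read 242.5, 192.8 and 185.7 in controls and 333.5, 383.6 and 452.9 after 8-Br-cAMP. It was 1.88-fold higher (log2 difference 0.91, 0.33 to 1.49, adjusted p = 0.0983), with pairs at 0.46, 0.99 and 1.29. Neither gene passed the paired fit, though both passed with the number 1 arrays left out (ROBO1 -0.81, adjusted p = 0.0014, and SLIT2 1.14, adjusted p = 0.0012). ROBO1 also passed in 2 of 10 alternatives with the block, and SLIT2 in 0.

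The other Slits were low and varied. SLIT1 read 123.9, 120.6 and 83.4 in controls and 137.8, 69.2 and 53.2 after 8-Br-cAMP (-0.43, adjusted p = 0.483). SLIT3 read 59, 22.3 and 50.9 against 71, 53.2 and 61.5 (0.60, adjusted p = 0.466). ROBO4, a Robo best known from endothelium, read 82.1, 86 and 51.5 in controls and 11.5, 52.8 and 55.6 after 8-Br-cAMP. Its difference of -1.14 (-2.63 to 0.35, adjusted p = 0.345) came mostly from pair 1 (-2.84), with -0.70 and 0.11 in pairs 2 and 3. Endothelial markers had a summed signal of 201.4 to 240.3 in controls and 312.3 to 457.8 after 8-Br-cAMP, with 2 of 7 above the level. CDH5, CLDN5, TIE1 and KDR were at 1.3 to 30.2. VWF read 13.2, 17.8 and 123.8 in controls and 292.3, 224.5 and 289.2 after 8-Br-cAMP, with a control mean below the filter level. PECAM1, the other marker above the level, read 24.3 to 104.6. TEK, with a mean below the level, went the other way from VWF, from 106, 60.7 and 68.1 in controls to 11.3, 20.7 and 14.2 after 8-Br-cAMP. The part of these markers in the ROBO4 values was not tested. ROBO3 had a mean below the filter level, with signals of 19.3 to 97.2.

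Eph receptors and ephrins gave no call in the paired fit. EPHB4, the receptor of ephrin B2, had signals that followed the array number more than the treatment. It read 2998.9 on control 1 against 572.8 and 648.3 on controls 2 and 3, and 5506.9 on 8-Br-cAMP 1 against 710.2 and 884.9 on the other treated arrays. Both number 1 arrays thus stood several-fold above the rest. Within pairs it was higher after 8-Br-cAMP by 0.88, 0.31 and 0.45 (mean 0.55, 0.07 to 1.02, adjusted p = 0.188). Its second probe set showed the same pattern, with pairs at 0.71, 0.39 and 0.31. With pair 1 left out of the paired fit the difference was 0.38 and passed (adjusted p = 0.0374), as did 37.6% of all genes. In the fit with both number 1 arrays left out and no block, the same difference did not pass (adjusted p = 0.0786). Without the block it turned to -0.39 when 8-Br-cAMP 1 was left out and was 1.31 when control 1 was. Its ligand EFNB2 read 4.2 to 60.

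EPHA2, an Eph kinase of epithelial and tumour cells, read 44.9, 86.6 and 75.6 in controls and 19.5, 39.8 and 51.3 after 8-Br-cAMP. It was lower in each pair (-1.20, -1.12 and -0.56, mean -0.96, adjusted p = 0.243), although the groups overlapped. EPHA3 read 466.4, 76.2 and 54 against 113.5, 55.3 and 45.7. Its difference of -0.91 (adjusted p = 0.266) rested on pair 1 (-2.04), and came to -0.35 (adjusted p = 0.509) when the number 1 arrays were out. EPHA1, EPHA4, EPHA5, EPHA7, EPHB1, EPHB3 and EPHB6 had means below the filter level, and EPHB3 held the highest single signal among them, 138.4 on control 2.

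EFNA3, a membrane-anchored ligand of EphA receptors, read 251.1, 113 and 44.9 in controls and 134.4, 3.1 and 27.7 after 8-Br-cAMP. Its mean difference of -2.26 was second in size to that of SEMA5A, but the groups overlapped and the single value of 3.1 made pair 2 differ by -5.19, against -0.90 and -0.70 in pairs 1 and 3. It did not pass (-4.40 to -0.13, adjusted p = 0.214). With pair 2 left out the difference was -0.80 (adjusted p = 0.578), and with pair 1 or pair 3 left out it was -2.94 or -3.04 (adjusted p = 0.0305 and 0.0169). The treated mean log2 signal of 4.50 was under the filter level. EFNA4 read 602.5, 69.7 and 111.1 in controls and 326.3, 87.5 and 85.6 after 8-Br-cAMP (-0.31, adjusted p = 0.597). EFNA5 (0.21, adjusted p = 0.820) and EFNB3 (-0.43, adjusted p = 0.517) had pairs of both signs. EFNA1, the main ligand of EPHA2, read 2.8 to 47.3, and EFNA2 and EFNB1 also had means below the level.

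The promoter windows of 2 tested genes, EPHA2 and SEMA4C, held a full CRE, the site bound by the cAMP-responsive factor CREB, and are printed with it in capitals for that reason. EPHA2 has it 51 bases before the start in chr1:16156070-16156319, and SEMA4C 40 bases before a start in chr2:96870081-96870330, both on the minus strand of GRCh38.p14. This SEMA4C start and its window lie inside the listed gene (chr2:96859718-96870830) and not at its 5′ end.
EPHA2: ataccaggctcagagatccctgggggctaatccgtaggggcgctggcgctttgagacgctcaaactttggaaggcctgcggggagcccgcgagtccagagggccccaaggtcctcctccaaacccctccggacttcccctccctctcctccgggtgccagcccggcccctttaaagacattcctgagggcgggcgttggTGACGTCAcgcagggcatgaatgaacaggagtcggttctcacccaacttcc
SEMA4C: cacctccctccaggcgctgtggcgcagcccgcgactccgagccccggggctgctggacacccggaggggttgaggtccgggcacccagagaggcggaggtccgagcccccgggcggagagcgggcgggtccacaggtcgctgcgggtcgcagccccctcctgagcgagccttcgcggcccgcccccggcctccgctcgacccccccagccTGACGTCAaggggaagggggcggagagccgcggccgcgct
Neither gene passed the paired fit (-0.96 and 0.03). SEMA3B, below the filter level, was the only other of the 47 genes with a full CRE, 31 bases before 1 of its starts. Over the 71 windows 3 held the CRE, against 1.65% of all 35116 windows of the same length. The half-site, which every full CRE contains on both strands, was in 16 of 71, against 21.2% of all windows. The SF-1 core, the site of the steroidogenic factor NR5A1, was in 1 (SEMA4G), against 3.44%. A match describes the letters only. EFNB3, NRP1, SEMA3A, SEMA6A and SEMA6B have no entry in the table.

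The 8 genes with several probe sets above the filter level show how far 1 probe set stands for its gene. In 5 of the 8, all such probe sets had mean differences of the same sign (EPHB4, PLXNA1, PLXNC1, PLXND1 and SEMA5A). For PLXNA1 (-1.33 and -0.37) and PLXNC1 (-1.12 and -0.16) the sizes differed. The second probe set of each had pairs of both signs, so the shared sign does not back the change. The second probe set of SEMA5A passed the filter through its controls alone, and that of PLXND1 through its treated arrays alone. Their shared signs therefore follow in part from the filter. NRP2, SEMA4C and SEMA4F had both signs.

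**Figure D3:**
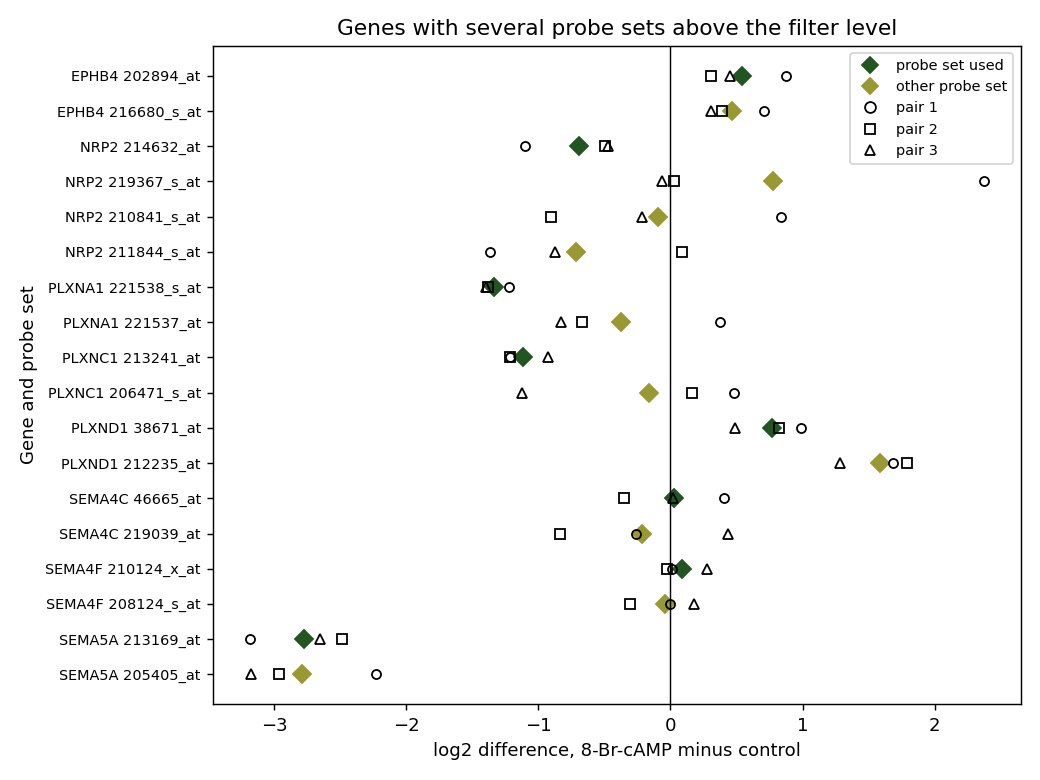
Log2 differences (x axis, 8-Br-cAMP minus control) of every probe set above the filter level, for the 8 guidance genes with several of them (y axis, gene and probe set). Diamonds are means, dark where the probe set is the one used, and open symbols are the 3 pairs. The SEMA5A probe sets coincide at -2.77 and -2.79, whereas those of PLXNA1 lie at -1.33 and -0.37.

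Of the 27 genes below the filter level, 20 had pairs of both signs, 5 were lower and 2 higher in all 3 pairs. With no filter 0 of them passed the paired fit, with a smallest adjusted p of 0.206, for EPHA7. EPHA7, a receptor of EphA type, read 16.7, 31.9 and 10 in controls and 3.5, 6.7 and 2.5 after 8-Br-cAMP, without overlap but all under the filter level. SEMA3G was the other gene here whose treated arrays all lay under the controls (32.9, 47.7 and 32.6 against 21, 27.5 and 3.4). Signals this low say little about direction.

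A list of 72 measured genes covered signalling by or beside the guidance receptors. It held collapsin response mediators, kinases, phosphatases and other signalling proteins. It also held receptors, ligands and proteases not downstream of the guidance receptors, such as CXCR4, CXCL12, MET and ADAM10. Above the filter level were 54, of which 2 rose and 3 fell in the paired fit. That is 9.26% against 3.68% of all genes. In the fit without the number 1 arrays it was 42.6% against 33.3%, with 8 higher and 15 lower. The median difference was -0.27, against -0.14 over all genes. The list was chosen with earlier results of these data known, so its shares and median set nothing about these genes apart from others. FARP1, which can act with plexins and in dendrites, read 2053.5, 2071.4 and 2010 in controls and 4243.7, 5416.6 and 5088.3 after 8-Br-cAMP. All treated signals were more than 2-fold the controls (2.39-fold, log2 difference 1.26, SE 0.17, adjusted p = 0.0231).

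DPYSL2, the collapsin response mediator that links semaphorin 3A receptors to microtubules, read 793.1, 284.8 and 292 in controls and 356.5, 90.5 and 93.4 after 8-Br-cAMP. Within each pair it was lower, by -1.15, -1.65 and -1.64 (mean -1.48, adjusted p = 0.0271). CDK5, a kinase that phosphorylates these mediators, read 410.9, 318.3 and 356 against 205.7, 94.5 and 70.2 (-1.70, adjusted p = 0.0423). PTPN13, a tyrosine phosphatase that can act on ephrin B, read 347.5, 520.6 and 791.2 against 109.3, 159.3 and 159.5 (-1.90, adjusted p = 0.0157). CXCR4, a chemokine receptor whose signal Slit and Robo can dampen, rose by 5.22 (adjusted p = 0.0147), with 400.4, 36 and 23.5 in controls and 3354.4, 2280.6 and 2280.8 after 8-Br-cAMP. The calls of DPYSL2 and FARP1 were lost with pair 2 left out (adjusted p = 0.0543 and 0.0565) and with pair 3 left out (0.0802 and 0.0806). That of CDK5 was lost with pair 3 left out (-1.38, adjusted p = 0.105). Without an intensity trend these 5 genes missed the threshold (adjusted p = 0.0511 for PTPN13, 0.0536 for CXCR4, 0.0651 for DPYSL2, 0.0742 for FARP1 and 0.0823 for CDK5), as they did in the unmoderated test. A common median also ended the calls of DPYSL2 (0.0576) and CDK5 (0.0749), quantile normalization that of CDK5 (0.0501) and spike-in scaling that of FARP1 (0.0618).

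A second list, of other guidance cues, receptors and adhesion partners such as netrins, DCC, UNC5 receptors and vascular growth factors, had 30 measured genes. Above the filter level were 11, of which 1 fell and 0 rose, 9.09% of the 11 against 3.68% of all genes. Leaving out the number 1 arrays gave 2 higher and 1 lower, 27.3% against 33.3%. This list too was chosen with earlier results known, so its shares set nothing about these genes apart from others. The gene that fell was NRCAM, an adhesion molecule of the L1 family that joins neuropilin 2 in semaphorin receptors. It read 390.1, 467.5 and 520.1 in controls and 54.6, 45.4 and 75.7 after 8-Br-cAMP, 7.97-fold lower without overlap (-2.99, adjusted p = 0.00823). VEGFA, which binds neuropilins, read 1291.1, 2110.9 and 2474.1 against 1772.7, 3169.9 and 3332.5 (0.49, adjusted p = 0.171). The netrin receptor UNC5B read 390.9, 341.2 and 290.1 against 253, 245.8 and 259.7 (-0.42, adjusted p = 0.316). NTN1 and DCC had no signal above 54.5.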

How the data were processed

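RNA from 3 control and 3 treated samples was measured on Affymetrix oligonucleotide arrays. The authors deposited signal intensities, unlogged, made with GCOS 1.3 per the labels' protocols. Each deposited column already had a 2% trimmed mean of 249.996 to 250.155, so no further scaling was applied, and a change shared by most transcripts would not be seen. Of 22277 probe sets 62 are array controls. GEO's platform annotation names 19064 of the other 22215 by 1 symbol, 1043 by several and 2108 not at all, and 1 SEMA3B probe set with several symbols was not used. RefSeq's gene table lists all 52 symbols as they stand.

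The filter kept the 13329 probe sets whose log2 mean exceeded 5.51, the 40th percentile. Their log2 signals went into limma 3.58.1 under R 4.3.3, using lmFit and eBayes with an intensity trend, two-sided. Benjamini-Hochberg adjustment ran over all of them, at a threshold of 0.05. Lists are described by counts, 1 probe set per gene. The main design had no block. As a check of pairing, each array's deviation from its group mean was correlated between arrays of equal number (0.603, 0.378 and 0.538 for numbers 1, 2 and 3). All exceed 0.1, and samples of equal number were treated as pairs. This pairing rests on the data, as the labels do not say what the numbers mark. It chiefly separates number 1, as control 3 correlated at 0.547 with 8-Br-cAMP 2 and control 2 at 0.312 with 8-Br-cAMP 3. The matching of numbers 2 and 3 is therefore not settled by these correlations. The block changes the error of a log2 difference and not its value.

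Genes were named by rule: those passing either fit, the 5 largest rises and 5 largest falls among tested genes, relatives of passing genes, and up to 5 passing genes per list. ROBO1, PLXNC1 and genes with low signal that are given in full were named after their values were seen. The rule also does not cover others given in full, among them NRP2, SLIT1, EPHA2, EPHA3, EFNA4, VEGFA and UNC5B. Their choice is to be read as made with values known. The members and lists were chosen with earlier results of these data known. Alternatives covered normalization, filter, floor, pseudocount, variance model, call rule, probe sets and arrays left out.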

Additional observations from a re-analysis of the deposited data

How the results depend on the processing

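With no block 0 of 25 guidance genes and 0 of 65 list genes passed. With the replicate block 2 and 6 passed. The correlations behind this block chiefly set number 1 apart and do not settle how numbers 2 and 3 are matched. Without the block 1 of each passed with a common median, a pseudocount of 16, quantile normalization, the filter moved to the 60th percentile or signals floored at the 20th, and with spike-in scaling. With the block the guidance count was 1 with a common median and without a trend, 2 with no filter, robust variances and every kept probe set, 3 with quantile normalization, the 60th percentile filter, the floor and the pseudocount, and 4 with spike-in scaling. The list count was 1 without a trend, 4 with a common median, 5 with quantile normalization, 7 with the 60th percentile filter, 9 with spike-in scaling, and 6 with no filter, the floor, the pseudocount, robust variances and every kept probe set. The unmoderated test called 0 in all 4 cases. The selection in the series' design text, 2-fold with an unadjusted p under 0.05, gave 5 and 12 without the block (7.01% of all genes) and 6 and 14 with it (9.3% of all genes). The spike-in counts were added after the data were seen. With arrays or pairs left out the guidance count ran from 0 to 9 and the list count from 0 to 27, highest where a number 1 array was out. Both number 1 arrays left out without the block gave 6 and 26.

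Over all probe sets 0 passed without and 428 with the block, where the alternatives with the block and all arrays gave 0 to 1064, and 81 without a trend. The SEMA5A difference ran from -3.15 to -2.45 and that of PLXNA1 from -1.72 to -1.01 over 39 alternatives. Of the 12 genes followed through them, only EPHB4 changed sign, to -0.39 without 8-Br-cAMP 1, and its difference was 1.31 without control 1. On the deposited scale the median difference of all tested probe sets was -0.13. It was -0.50 when scaled to 18 spike-in probe sets, 0.09 with array medians made equal and -0.03 with quantiles made equal. Genes near the filter level, SEMA4D, EFNA3, ROBO4 and SLIT3 among them, are limited by their low signal.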

Other observations

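Some genes outside the families and below the filter level stood apart between the groups. VEGFC, a growth factor that binds neuropilin 2, read 19.1, 9.7 and 4 in controls and 38.1, 58.1 and 54.2 after 8-Br-cAMP. CHL1, an adhesion molecule of the L1 family and partner of neuropilin 1, read 6.1, 1.9 and 1.3 in controls and 21.1, 16.6 and 11.2 after 8-Br-cAMP. TEK, the angiopoietin receptor and an endothelial marker given above, read 106, 60.7 and 68.1 against 11.3, 20.7 and 14.2. These genes were singled out after their values were seen, and with mean signals under the filter level they entered no test.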
